A study of Mus musculus with 6 samples.

Results

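The clustered protocadherins are cell-surface adhesion proteins of the cadherin superfamily, encoded in neighbouring alpha, beta and gamma clusters. Members were taken by symbol, as rows named Pcdha, Pcdhb, Pcdhga, Pcdhgb or Pcdhgc followed by a number or by the letter c and a number, and 58 of the 32201 genes in the table met that rule. They comprised 14 alpha rows, 22 beta rows and 22 gamma rows, the last made up of 12 Pcdhga, 7 Pcdhgb and 3 Pcdhgc genes. The symbol Pcdha11 stood on 2 rows with different gene identifiers. The rule used symbols and no measured values, though earlier results of these data were known when it was set.

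The tissue was hippocampus from 8-week-old male mice of the C57BL/6N strain. All 6 libraries came from mice put through chronic unpredictable mild stress (CUMS), a rotating schedule of mild stressors that serves as a rodent model of depression. In 3 libraries the mice had received 20 mg/kg of baicalin, a flavonoid glucuronide of Scutellaria root, and in the other 3 they had received saline. An unstressed group is named in the labels' protocol and is not analysed here, so the values cannot say what stress did to these genes. The labels do not say whether libraries of a group are separate animals, and p-values then measure only the spread between libraries, which may be technical.

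Each neuron switches on a small and largely random subset of alpha, beta and gamma promoters, through DNA looping that depends on CTCF and cohesin and through promoter methylation. The chosen proteins pair on the cell surface and bind matching partners on other membranes, which gives a neuron an identity code used in dendrite self-avoidance, tiling and neuronal survival. An alpha or gamma transcript joins its own variable first exon, which encodes the extracellular part, to constant last exons that the whole cluster shares. Beta genes have no constant exons, and most are single-exon genes. The c-type members (Pcdhac1, Pcdhac2, Pcdhgc3, Pcdhgc4 and Pcdhgc5) lie at the ends of the alpha and gamma clusters and are less subject to random choice than the rest.

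In the deposited coordinates (mm10, per the submitters' processing notes) all 58 members lie on the plus strand of chromosome 18. The alpha rows span 36930184 to 37187661, the beta rows 37264938 to 37524479 and the gamma rows 37661793 to 37841873. In the gene models of GENCODE mouse release 21, the 14 alpha members share 3 last exons of 59, 89 and 2712 bases. The 22 gamma members share last exons of 59 and 89 bases, and a final exon of 1971 bases in 17 of them and 1968 bases in 5. Exonic bases shared with other members of the cluster made up 38.0 to 54.9% of an alpha member (median 53.4%) and 27.8 to 66.8% of a gamma member (median 44.7%). Among beta members this share was 0, except 9.67% in Pcdhb21 and 6.88% in Pcdhb22, which overlap by 455 bases. Counted in 100-base windows, genes outside the member list also shared sequence. Windows shared with any gene made up 88.4% of Pcdha4 and 34.5% of Pcdhgc5, beside 50.7% and 25.9% shared with members. Neither the handling of reads over shared exons nor the use of strand in counting is given in the sources used here. Alpha members, and likewise gamma members, therefore cannot be told apart within those exons.

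Library totals were 61303274 to 64983755 counts with baicalin and 65989141 to 67957752 with saline, and mitochondrial genes held 7.18 to 8.69% of counts, with the highest share in baicalin library 3. The 5 markers of hippocampal neurons (Prox1, Neurod2, Slc17a7, Wfs1 and Grik4) summed to 224 to 263 FPKM, the fragment count scaled to transcript length and library size. The 2 markers of olfactory neurons summed to 0.102 to 0.248 FPKM, and the 2 measured markers of serotonin neurons to 0.223 to 0.460 FPKM. Markers of interneurons, astrocytes, oligodendrocytes and their precursors, microglia, endothelium and choroid plexus, and of the meninges, overlapped between groups in summed FPKM. In bulk tissue, fewer cells of a type and less RNA per cell cannot be told apart.

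The gamma cluster gave most of the clustered protocadherin RNA. On the FPKM scale, its members summed to 114, 125 and 116 in saline libraries 1 to 3 and to 119, 106 and 105 in baicalin libraries 1 to 3. Beta members summed to 27.2, 27.2 and 28.7 FPKM with saline and 28.4, 25.4 and 26.8 with baicalin. Alpha members summed to 13.0, 13.2 and 13.2 FPKM with saline and 11.1, 13.2 and 11.2 with baicalin. The groups overlapped in each of these summed levels. The alpha sum varied little among saline libraries (13.2 ± 0.119 FPKM, mean ± SD, n = 3) and more among baicalin libraries (11.9 ± 1.19), where libraries 1 and 3 were below all saline libraries and library 2 was within their range.

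Single members differed widely in level. Averaged over the 6 libraries, 33 members reached 1 FPKM, namely 3 of 14 alpha, 10 of 22 beta and 20 of 22 gamma members. Another 24 lay between 0.1 and 1 FPKM (11 alpha, 11 beta, 2 gamma), and Pcdhb1 had a mean of 0.0198 FPKM. The highest mean levels were those of Pcdhgb8 (57.1 FPKM), Pcdhgb1 (9.58), Pcdhga9 (8.24) and Pcdhgc5 (6.33) in the gamma cluster. The Pcdhga9 mean rested on baicalin library 3 (41.4 FPKM), and over the other 5 libraries it was 1.60 FPKM, below Pcdhgc5. In the beta cluster they were those of Pcdhb9 (4.88), Pcdhb17 (2.53) and Pcdhb20 (2.45), and in the alpha cluster those of Pcdhac2 (4.27), Pcdha6 (1.17) and Pcdha2 (1.01).

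**Figure D1:**
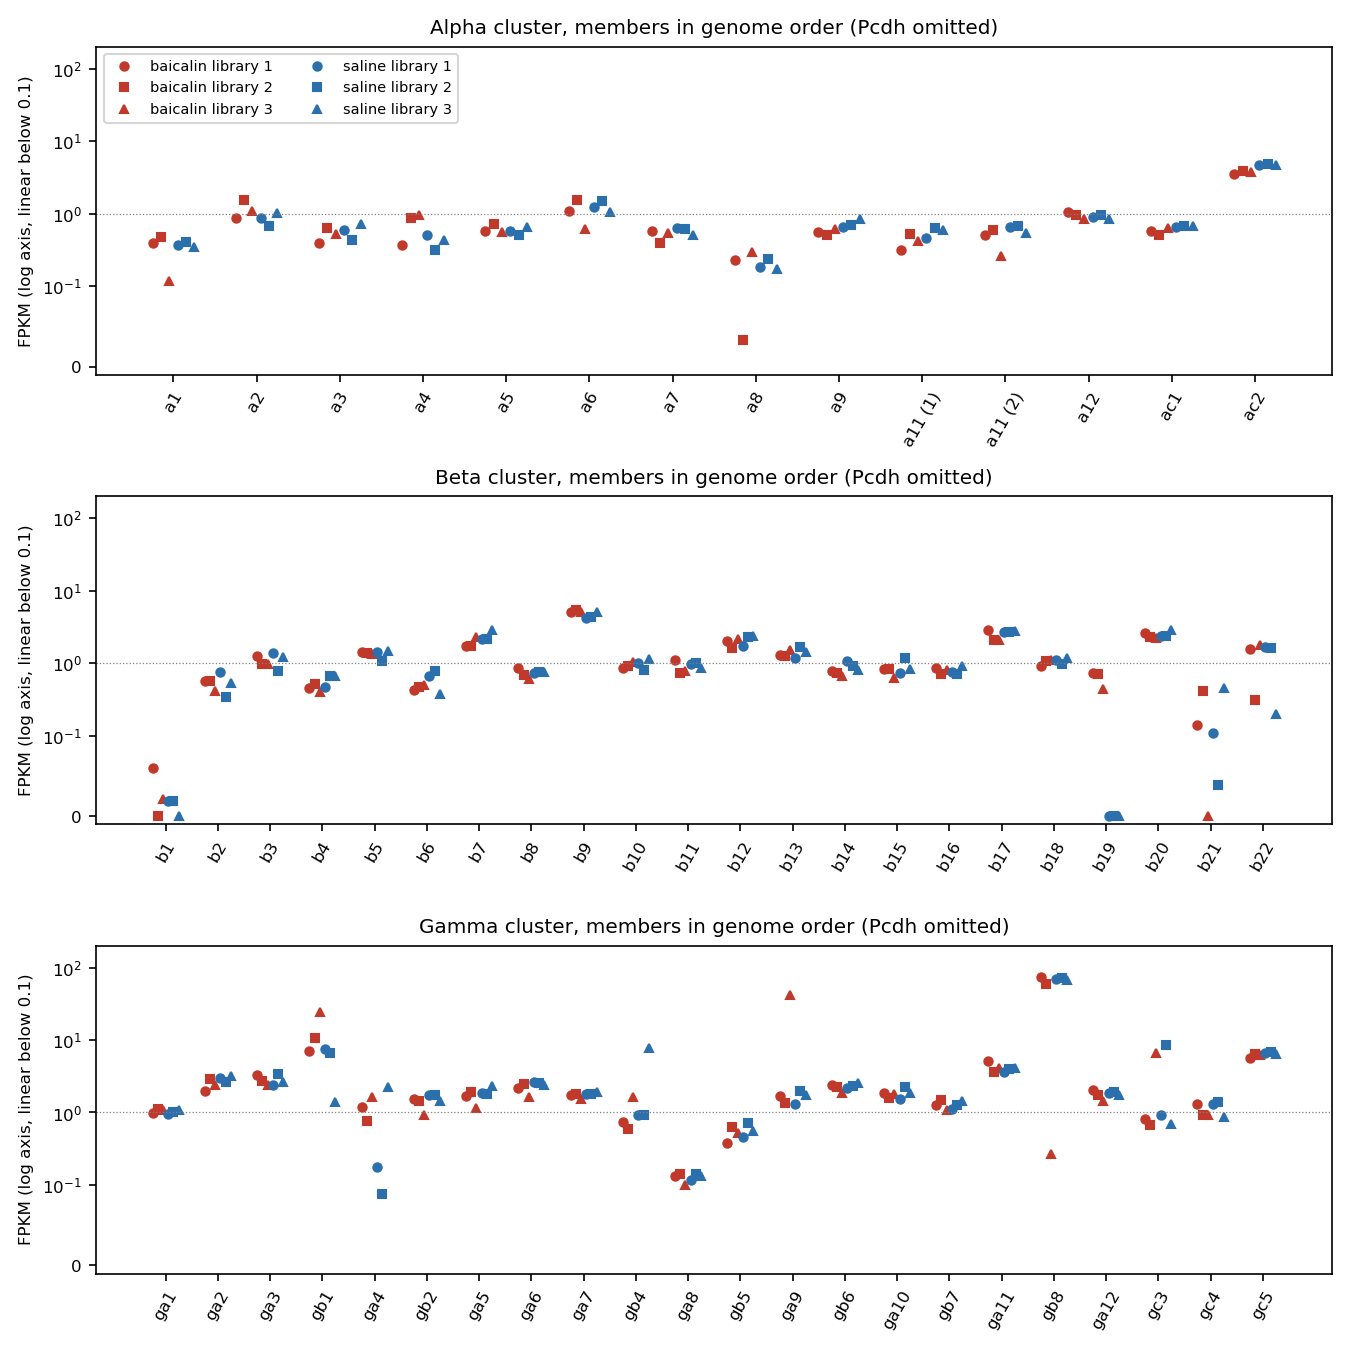
FPKM of all 58 members in each library, in panels for the alpha, beta and gamma clusters (vertical axis logarithmic above 0.1 and linear below). Circles, squares and triangles are libraries 1, 2 and 3, red for baicalin and blue for saline, the dotted line marks 1 FPKM, and "a11 (1)" and "a11 (2)" are the rows ENSMUSG00000007440 and ENSMUSG00000102206. Most gamma members lie above the line and most alpha members below it, and points of 1 gene spread widest at Pcdhgb8, Pcdhb19 and Pcdhb21.

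The comparison of baicalin with saline asks whether levels of these genes differ between stressed mice with and without the compound. It was made with edgeR's quasi-likelihood test over the 13153 genes whose average reached 1 FPKM. None of the 33 members tested passed an adjusted p of 0.05 in edgeR, where 0.0456% of all genes did (6 of 13153). DESeq2 called 1 member, Pcdhac2, against 1.76% of the genes it gave an adjusted p. Members it gave none included Pcdhga9, Pcdhgb4 and Pcdhgc3. At an unadjusted p under 0.05 in edgeR, 1 of 33 members was lower with baicalin (Pcdhac2) and 0 were higher, beside 5.46% and 6.34% of all genes. Log2 changes (baicalin minus saline) were negative in 22 members and positive in 11, with a median of -0.10, beside a median of -0.0006 over all genes tested, of which 6598 were negative and 6555 positive.

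By cluster, the median log2 change was -0.22 over 3 alpha members (2 negative, 1 positive) and -0.07 over 10 beta members (7 negative, 3 positive). Over 20 gamma members it was -0.11 (13 negative, 7 positive), and within that cluster it was -0.08 for 11 Pcdhga, -0.22 for 6 Pcdhgb and -0.18 for 3 Pcdhgc genes. Members share exons and libraries, so these counts are a description and carry no test. Scaling libraries to equal summed FPKM moved the split to 26 negative and 7 positive, and moved the median of all genes to -0.08. Lowering the filter to 0.1 FPKM admitted 57 members, of which 41 were negative and 16 positive with a median of -0.11.

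The precision of the single-gene comparison was lower for these genes than for all genes tested. The median standard error of the log2 change was 0.16 over the members and 0.09 over all genes tested. These medians were not matched for expression level. Only 3 tested members had groups that did not overlap in CPM, counts scaled to library size with TMM factors. Pcdhac2 and Pcdhgc5 were lower with baicalin in every library and Pcdhb9 was higher. That is 2 of 33 lower and 1 of 33 higher, beside 9.52% and 9.93% of all genes tested.

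**Figure D2:**
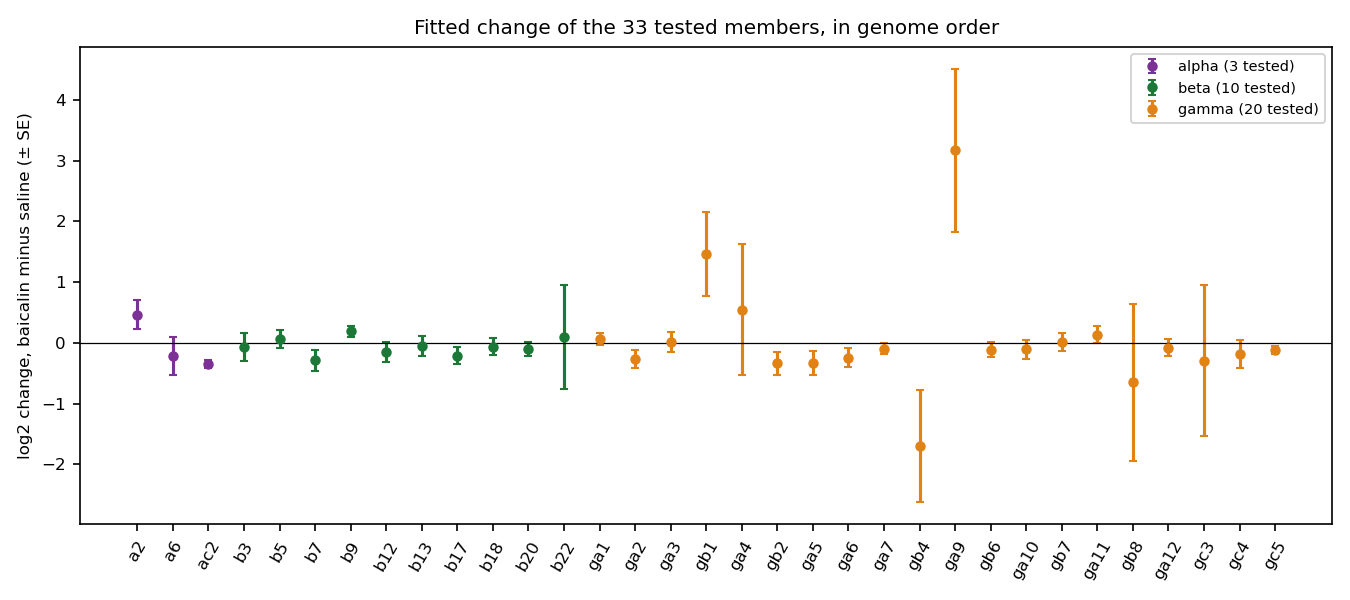
Log2 change (baicalin minus saline) with its standard error for the 33 members tested in edgeR, by cluster. Pcdhga9 at 3.18 ± 1.34 and Pcdhgb4 at -1.70 ± 0.92 are among the members with wide error bars. The 26 members with less than a 5-fold range between libraries lie from -0.35 to 0.47. Pcdhac2 at -0.35 ± 0.06 has the shortest error bar of these. Some others, such as Pcdhb7 at -0.29 ± 0.17 and Pcdha2 at 0.47 ± 0.24, also stay on a single side of 0.

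Among alpha members, Pcdhac2 was the most abundant. This c-type protein is needed for the even spacing of serotonergic axons in the forebrain, hippocampus included. Its levels were 4.73, 4.90 and 4.76 FPKM in the saline libraries and 3.57, 3.90 and 3.76 FPKM in the baicalin libraries. All baicalin libraries were below all saline libraries, and libraries within a group lay close together. In TMM-scaled CPM, saline libraries averaged 32.2 ± 0.723 and baicalin libraries 25.2 ± 1.07 (SD, n = 3 per group), a log2 change of -0.35 ± 0.06 (SE). It did not pass in edgeR (unadjusted p = 0.000878, adjusted p = 0.222), and it passed in DESeq2 (adjusted p = 0.00277). Over 15 alternatives with a p-value, from edgeR, DESeq2 and limma, the log2 change stayed between -0.43 and -0.29 while the adjusted p ranged from 0.00277 to 0.589, and DESeq2 alone called it.

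Pcdhac2 made up 36.4, 37.0 and 36.1% of the alpha cluster's summed FPKM in the saline libraries and 32.1, 29.5 and 33.4% in the baicalin libraries. These shares did not overlap either. Without Pcdhac2, the other 13 alpha rows summed to 8.29, 8.34 and 8.43 FPKM with saline and 7.53, 9.33 and 7.49 with baicalin, and baicalin libraries stood on both sides of the saline range. The summed FPKM of the 5 hippocampal neuron markers was lower in the same libraries, at 224 to 238 with baicalin and 238 to 263 with saline, the nearest libraries almost touching. Slc17a7, which gave most of that sum, and Wfs1 were lower in every baicalin library (log2 changes of -0.16 and -0.40), while those of Prox1 (0.08), Grik4 (0.06) and Neurod2 (0.01) were positive. None of the 5 passed in edgeR, and their median log2 change was 0.01. Markers of serotonin neurons were near 0 throughout, and their summed FPKM overlapped between groups. The part of the neuron markers in the Pcdhac2 difference was not tested.

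No other alpha member passed the adjusted threshold in any setting run. Pcdhac1, the remaining c-type alpha member, read 0.648, 0.674 and 0.688 FPKM with saline and 0.582, 0.514 and 0.640 with baicalin. All baicalin libraries were below all saline libraries in FPKM, though not in TMM-scaled CPM. Its log2 change in the fit at 0.1 FPKM was -0.21 ± 0.14 (adjusted p = 0.678, edgeR). Pcdha2, an ordinary alternative alpha isoform, read 0.861, 0.685 and 1.02 FPKM with saline and 0.880, 1.55 and 1.10 with baicalin. The groups overlapped, and the log2 change was 0.47 ± 0.24 (adjusted p = 0.484, edgeR). Pcdha6, another alternative isoform, read 1.23, 1.49 and 1.05 FPKM with saline and 1.09, 1.53 and 0.620 with baicalin. Only baicalin library 3 was outside the saline range, and the log2 change of -0.22 ± 0.31 (adjusted p = 0.804, edgeR) became 0.056 without that library. The median over the 3 tested alpha members likewise became 0.056.

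**Figure D3:**
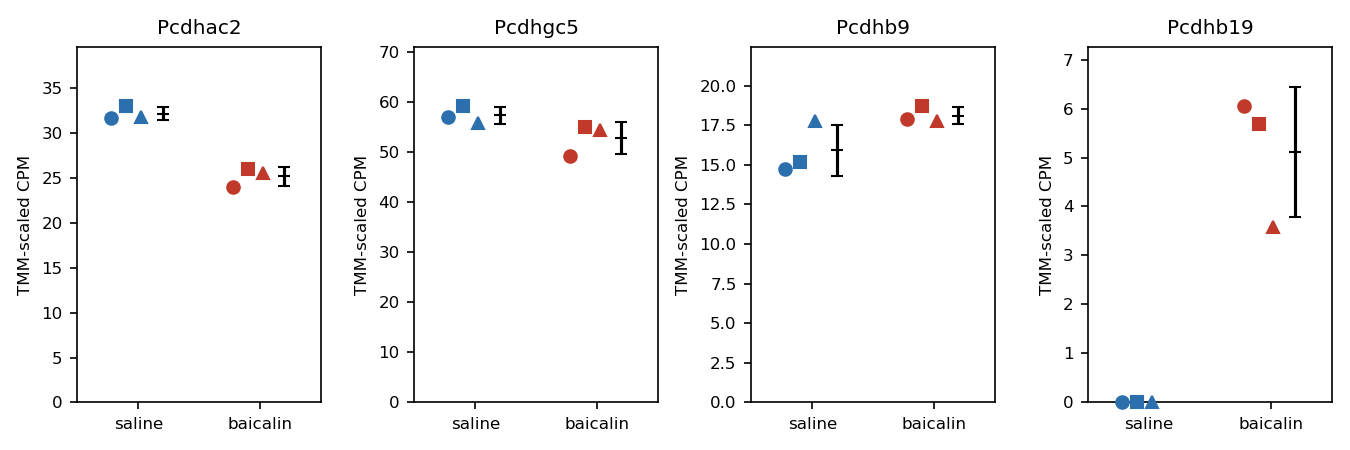
TMM-scaled CPM of Pcdhac2, Pcdhgc5, Pcdhb9 and Pcdhb19 in each library (points), with the mean and SD of 3 libraries per group. Groups are apart for Pcdhac2 (32.2 with saline, 25.2 with baicalin), nearly touch for Pcdhgc5 and Pcdhb9, and for Pcdhb19 every saline library is at 0.

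Beta members have no constant exons to share. Pcdhb9 was the most abundant of them, with 4.25, 4.35 and 5.12 FPKM in the saline libraries and 5.12, 5.40 and 5.03 in the baicalin libraries. Saline library 3 was level with the baicalin group, so the groups overlapped in FPKM and were apart in TMM-scaled CPM by a margin too small to print. The CPM means were 15.9 ± 1.63 with saline and 18.1 ± 0.509 with baicalin (SD, n = 3 per group), with a log2 change of 0.19 ± 0.09 (adjusted p = 0.477, edgeR). Pcdhb7 had the lowest log2 change of the tested beta members, from 2.14, 2.17 and 2.83 FPKM with saline to 1.73, 1.74 and 2.33 with baicalin. Its groups overlapped (log2 change -0.29 ± 0.17, adjusted p = 0.541, edgeR). The log2 changes of Pcdhb17 (-0.21 ± 0.14) and Pcdhb20 (-0.10 ± 0.11) were also within their spread, with adjusted p = 0.568 and 0.733 in edgeR.

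Pcdhb19 stood apart from its cluster. It had 0 counts in each of the 3 saline libraries and 389, 372 and 217 counts in baicalin libraries 1, 2 and 3, which are 0.741, 0.703 and 0.433 FPKM. Every baicalin library had it and no saline library did. Its neighbours were counted in all libraries: Pcdhb18, which ends 2485 bases before it, had 366 to 456 counts with saline and 334 to 400 with baicalin. Pcdhb20, which starts 135 bases after it, had 639 to 786 counts with saline and 552 to 673 with baicalin. In the gene models 0.242% of the 100-base windows in Pcdhb19 occur in another gene's transcripts. The part of read assignment in its counts was not tested.

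With a mean of 0.313 FPKM, Pcdhb19 was below the 1 FPKM filter, so it had no place in the main comparison. At a filter of 0.1 FPKM it entered only through the baicalin libraries, where it was high, so its call there is a description and no support for the difference. In that fit edgeR called 1 of 57 members, Pcdhb19 (adjusted p = 0.0441), and 0.0293% of 20463 genes. The adjusted p in edgeR was 0.0516 with no filter and ran from 0.0439 to 0.129 when each library was left out, passing only without saline library 3. Against a floor of 3 counts over the pooled saline libraries, its count relative to unscaled library totals was 342-fold higher with baicalin. That ratio takes in no spread between libraries, so it is a description and no lower bound. Across the whole table, Pcdhb19 was the only gene at 0 in all saline libraries with at least 50 counts in each baicalin library, and no gene had the opposite pattern. The same held at minimums of 100 and 200 counts, and at 20 counts Gm20547 joined it. These minimums were chosen after the values were seen.

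Pcdhb22 and Pcdhb21 overlap, and their counts moved against each other. Pcdhb22 had 824, 801 and 101 counts in saline libraries 1 to 3 and 770, 153 and 817 in baicalin libraries 1 to 3. Pcdhb21 had 39, 14 and 165 counts with saline and 49, 144 and 0 with baicalin. Saline library 3 and baicalin library 2 were low in Pcdhb22 and high in Pcdhb21, so a library from each group showed the pattern. The sum of both was 863, 815 and 266 with saline and 819, 297 and 817 with baicalin, still low in those libraries. The log2 change of Pcdhb22 was 0.10 ± 0.86 (adjusted p = 0.970, edgeR). How reads over the overlap were counted is not given, and the part of the overlap in these values was not tested.

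The gamma cluster held the widest differences between libraries, and in none of its widely ranging members did they separate the groups. A ratio of at least 5 between the highest and the lowest library in CPM was a limit chosen after the values were seen. It was found in 7 of 33 tested members (Pcdhb22 and 6 gamma genes) and in 1.51% of all genes tested. Among the lists described below, 2 of 9 tested non-clustered protocadherins (Pcdh7 and Pcdh19) and 1 of 20 tested chromatin regulators (Dnmt3a) reached it. No tested signalling partner or neighbouring gene did. The 6 gamma genes are Pcdhga4, Pcdhga9, Pcdhgb1, Pcdhgb4, Pcdhgb8 and Pcdhgc3. The other 26 tested members had ratios of at most 2.42.

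Pcdhgb8, which had the highest mean level of any member, had 24303, 25073 and 24224 counts with saline and 25052, 20168 and 86 with baicalin. Baicalin library 3 had almost none of it, and the other 5 libraries were alike. It took 56.9, 52.7 and 53.9% of all gamma counts in the saline libraries and 58.0, 50.9 and 0.209% in the baicalin libraries. Its CPM differed 274-fold between the highest and lowest library, and its log2 change was -0.65 ± 1.29 (adjusted p = 0.858, edgeR). GENCODE lists a protein-coding transcript and a polymorphic pseudogene transcript for this gene.

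Pcdhga9 showed the converse, with 551, 824 and 750 counts with saline and 694, 556 and 16190 with baicalin. The single high library was baicalin library 3, the library without Pcdhgb8. The log2 change of 3.18 ± 1.34 (adjusted p = 0.427, edgeR) rested on that library and was -0.14 without it. Pcdhgb1 had 3258, 2853 and 625 counts with saline and 2983, 4601 and 9835 with baicalin. It was highest in baicalin library 3 and lowest in saline library 3, and the groups overlapped (log2 change 1.46 ± 0.69, adjusted p = 0.454, edgeR).

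Pcdhgb4 was high in saline library 3 alone, with 400, 413 and 3521 counts with saline and 316, 257 and 658 with baicalin. Its log2 change of -1.70 ± 0.92 (adjusted p = 0.504, edgeR) was 0.10 without that library. Pcdhga4 had 65, 32 and 821 counts with saline and 419, 273 and 550 with baicalin. It was high in the same saline library and low in the other saline libraries (log2 change 0.55 ± 1.08, adjusted p = 0.857, edgeR). In the gene models, Pcdhga4 shares 3157 exonic bases with other members and Pcdhgb1 shares 3154, beside 2116 or 2119 in most gamma members. The part of this sharing in their counts was not tested. Pcdhgc3, a c-type member that binds Axin1 and promotes dendrite branching in cortical neurons, had 383, 3563 and 294 counts with saline and 334, 273 and 2587 with baicalin. A single library in each group was high, saline library 2 and baicalin library 3, and the log2 change was -0.29 ± 1.24 (adjusted p = 0.934, edgeR).

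Summed over these 6 genes, the counts were 28960, 32758 and 30235 with saline and 29798, 26128 and 29906 with baicalin. The sum differed 1.25-fold between the highest and the lowest library, while the genes within it, chosen for their range, differed by at least 5-fold. Outside baicalin library 3, Pcdhgb8 gave most of the sum. Saline library 2, with its high Pcdhgc3 count, had the highest sum. The other 16 gamma members summed to 13783, 14825 and 14744 counts with saline and 13402, 13527 and 11284 with baicalin, a 1.31-fold range. The whole cluster had 42743, 47583 and 44979 counts with saline and 43200, 39655 and 41190 with baicalin, a 1.20-fold range. In baicalin library 3 the low Pcdhgb8 count stood beside high counts of Pcdhga9, Pcdhgb1 and Pcdhgc3. How the shared exons, last or other, contributed to these differences was not tested, because the table gives no counts per exon.

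**Figure D4:**
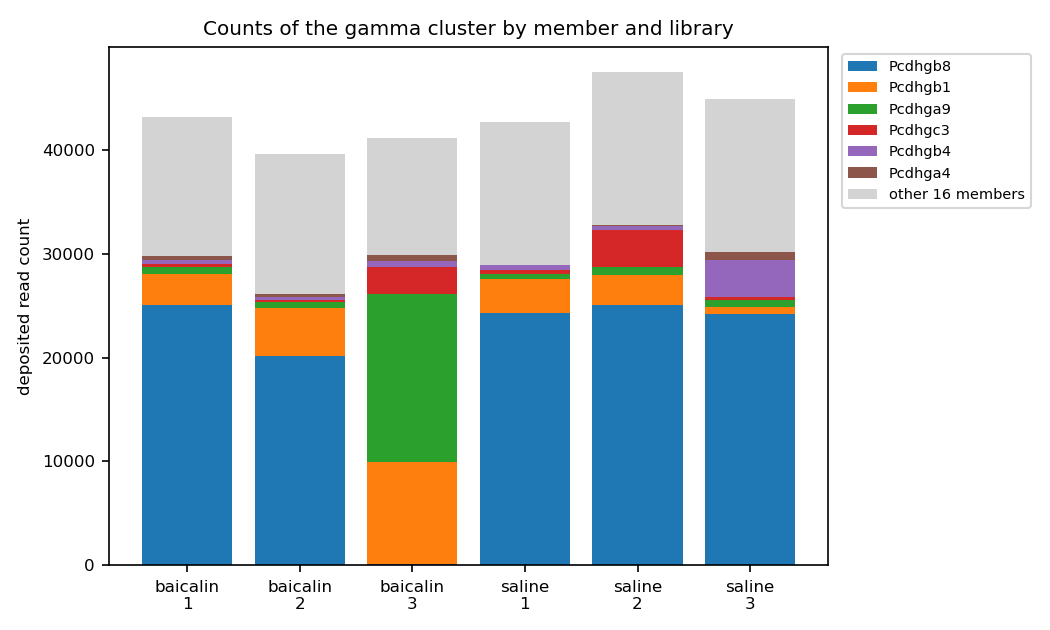
Counts of the gamma cluster in each library, stacked as Pcdhgb8, Pcdhgb1, Pcdhga9, Pcdhgc3, Pcdhgb4, Pcdhga4 and the other 16 members. Bars are of similar height (39655 to 47583 counts), while in baicalin library 3 Pcdhgb8 has 86 counts and Pcdhga9 fills 16190.

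Among members averaging at least 0.1 FPKM, wide ranges were seen in some that share exons and in the beta genes Pcdhb19, Pcdhb21 and Pcdhb22. Pcdhb21 and Pcdhb22 overlap, and Pcdhb19, which shares no exonic bases, was at 0 in the saline libraries only. The part of shared bases in these ranges was not tested. At a filter of 0.1 FPKM, 10 of 57 members had a ratio of at least 5, beside 10.4% of 20463 genes. The additional members were Pcdha8, Pcdhb19 and Pcdhb21. Pcdha8, an alternative alpha isoform, was low in baicalin library 2 alone, at 0.0333 FPKM against 0.171 to 0.295 FPKM in the other 5 libraries.

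**Figure D5:**
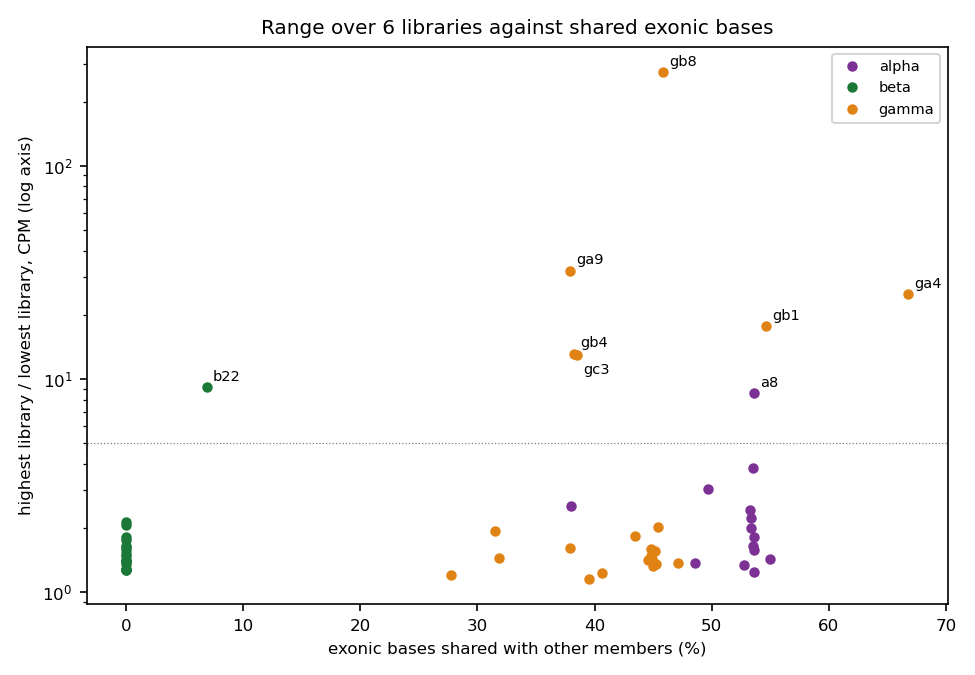
Ratio of the highest to the lowest library in TMM-scaled CPM (vertical, log axis) against the percentage of exonic bases shared with other members (horizontal) for each member, coloured by cluster, with the dotted line at a ratio of 5. Pcdhb1, Pcdhb19 and Pcdhb21 are not drawn because their lowest library is 0. Pcdhgb8 is highest at 274, and most alpha and gamma members lie below the line while sharing 27.8 to 66.8% of their exonic bases with other members.

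Outside those 6 genes, gamma members were close between groups. The remaining 14 tested gamma members had log2 changes from -0.34 to 0.14, with 10 negative, 4 positive and a median of -0.11. Pcdhgc5, a c-type member that appears late in postnatal development and binds GABA-A receptors at hippocampal synapses, had 6.58, 6.78 and 6.44 FPKM with saline and 5.64, 6.37 and 6.15 with baicalin. Every baicalin library was below every saline library, by little. The CPM means were 57.3 ± 1.67 with saline and 52.8 ± 3.19 with baicalin (SD, n = 3 per group), and the log2 change of -0.12 ± 0.06 did not pass in edgeR (adjusted p = 0.504). Pcdhgc4, the c-type member on which survival of many inhibitory interneurons depends, had 1.33, 1.38 and 0.855 FPKM with saline and 1.29, 0.925 and 0.915 with baicalin. Its groups overlapped (log2 change -0.18 ± 0.23, adjusted p = 0.767, edgeR).

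Below the 1 FPKM filter, groups did not overlap in CPM for a further 3 members. Pcdha9 (log2 change -0.38 ± 0.15) and Pcdhb14 (-0.37 ± 0.13) were lower in every baicalin library, with adjusted p = 0.523 and 0.497 in edgeR at 0.1 FPKM. The remaining member was Pcdhb19. In all, 4 of 57 members were lower without overlap and 2 were higher, beside 8.01% and 8.97% of the 20463 genes at that filter.

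Genes that act on the clusters were compared in the same edgeR fit. Of 21 chromatin regulators, 20 were tested and none was called, with 8 positive and 12 negative log2 changes and a median of -0.03. Ctcf, which anchors the promoter loops, had a log2 change of -0.02 ± 0.08, and Rad21, a cohesin subunit, 0.02 ± 0.05. Smchd1, which represses clustered protocadherin promoters, had -0.03 ± 0.10. The smallest p-values on each side were those of Smc3, another cohesin subunit (-0.22 ± 0.06, adjusted p = 0.342, edgeR), and Ehmt2, a histone H3 lysine methyltransferase (0.09 ± 0.04, adjusted p = 0.443, edgeR). At an unadjusted p under 0.05, 2 of the 20 were lower and 0 higher, beside 5.46% and 6.34% of all genes tested.

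Signalling partners were compared in the same way. Of 23 signalling partners, among them the WAVE complex bound by protocadherin cytoplasmic tails and the focal adhesion kinases that gamma members inhibit, 22 were tested and none was called in edgeR. Their log2 changes were positive in 12 and negative in 10, with a median of 0.02, and at an unadjusted p under 0.05, 3 of the 22 were lower and 3 higher, beside the same 5.46% and 6.34% of all genes. Wasf1, the neuronal WAVE protein, had -0.08 ± 0.07. The kinases Ptk2 (FAK) and Ptk2b (PYK2) had -0.01 ± 0.05 and 0.05 ± 0.07. Robo1, an axon guidance receptor, had -0.21 ± 0.06 (adjusted p = 0.335, edgeR), and Brk1, a small WAVE complex subunit, had 0.13 ± 0.04 (adjusted p = 0.354, edgeR).

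Non-clustered protocadherins, which are encoded outside these clusters by genes of their own, had 9 of 13 listed genes tested and none called in edgeR. The log2 changes were positive in 3 and negative in 6, with a median of -0.10, and at an unadjusted p under 0.05, 2 of the 9 were lower (5.46% of all genes) and 0 higher (6.34%). Pcdh1 read 41.1, 40.6 and 36.5 FPKM with saline and 34.7, 33.4 and 32.7 with baicalin, all baicalin libraries being lower (log2 change -0.22 ± 0.06, adjusted p = 0.322, edgeR). Cdhr1, a photoreceptor cadherin gene, had 0.28 ± 0.17 (adjusted p = 0.541, edgeR).

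Among 43 genes next to, between or within the clusters, 21 were tested and none was called in edgeR. Their log2 changes were positive in 8 and negative in 13, with a median of -0.02. Pcdh1 and Pcdh12 are on this list and on that of the non-clustered protocadherins. At an unadjusted p under 0.05, 1 of the 21 was lower (Pcdh1) and 2 were higher, where 5.46% and 6.34% of all genes were. Taf7, a transcription initiation factor gene between the beta and gamma clusters, had 0.02 ± 0.10. Hdac3, a histone deacetylase gene beyond the end of the gamma cluster, read 13.8, 14.3 and 19.6 FPKM with saline and 21.8, 21.8 and 21.2 with baicalin. Every baicalin library was above every saline library, and saline library 3 was the nearest. Its log2 change was 0.45 ± 0.13 (adjusted p = 0.353, edgeR). It passed in DESeq2 (adjusted p = 0.0438) and in edgeR without saline library 3 (log2 change 0.63, adjusted p = 0.0307).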

How the data were processed

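Libraries were made from rRNA-depleted total RNA with random primers, per the labels' protocols. The authors deposited a whole-number count and an FPKM value per gene and library. The submitters' processing notes name the build mm10 and, as tools, HISAT2, StringTie, bcl2fastq 2.0, limma and DESeq2, with no roles or options. Counts and FPKM were proportional within genes (SD of the log2 ratio 0.0011 over 12236 genes). A further 12 per-sample columns fitted no sample label and stayed out.

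Genes averaging 1 FPKM or more were TMM-scaled and fitted by treatment in edgeR 4.0.16 (R 4.3.3), tested on simulated data, with Benjamini-Hochberg adjustment over 13153 genes. Standard errors are the absolute log2 change over the square root of F. CPM is TMM-scaled. Alternatives used limma 3.58.1, DESeq2 1.42.0, other filters, scalings and omitted libraries. Exon models came from GENCODE mouse release 21. Members and lists were chosen with earlier results of these data known. Named are the c-type members, the 3 most abundant members and the 2 highest and 2 lowest log2 changes per cluster, any member called in any setting, and fixed genes or the smallest p per direction in the other lists. Pcdha8, Pcdha9, Pcdhb1, Pcdhb14, Pcdhb18, Pcdhb21, Pcdhga4, Pcdh7, Pcdh19, Dnmt3a and Gm20547 were added after their values were seen.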

Additional observations from a re-analysis of the deposited data

How the results depend on the processing

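The number of genes called was 6 in the main edgeR fit, 218 in DESeq2, 2 in limma on log2(FPKM + 0.1) and 2 to 39 in edgeR when a library was left out. Members called were 0 in that fit, 1 in DESeq2 (Pcdhac2) and 1 at a filter of 0.1 FPKM (Pcdhb19), and at the 1 FPKM filter they were 0 when any library was left out. Neighbouring genes called were 1 in DESeq2 and 0 to 1 when a library was left out (Hdac3, without saline library 3). Replicate numbers are shared between groups in the labels without a stated meaning. Same-numbered libraries correlated in their deviations from the group means at 0.09, 0.05 and -0.02, so the numbers were not taken as pairs, and with the replicate block 0 genes were called. The median log2 change of the alpha cluster was -0.38 to 0.056 when a library was left out and that of the beta cluster -0.15 to -0.02 over the planned settings. The gamma median was -0.18 with libraries scaled to equal summed FPKM and 0.66 over the 4 members at a filter of 5 FPKM, where no alpha or beta member was left to give a value. Leaving out single libraries turned the direction of 14 of the 33 tested members. Among the members described singly, the log2 change ran from -0.54 to 0.056 for Pcdha6, from -0.40 to 0.56 for Pcdhb22, from -2.27 to 0.10 for Pcdhgb4, from -0.14 to 3.72 for Pcdhga9 and from -2.19 to 1.78 for Pcdhgc3. The fits at 0.1 FPKM for Pcdhb19 and Pcdhac1 without each library were chosen after seeing the data. Subtracting a trend on gene length gives log2 changes and no p-values, so calls were not recomputed for it. With 3 libraries a group, Pcdhac2 did not pass in edgeR although its standard error of 0.06 was the smallest of the tested members. Changes of that size were therefore not detectable in edgeR in the other members. Standard errors were above 0.2 for members of each cluster.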
